A study of Mus musculus with 4 samples.

Results

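TFE3 regions found after both stresses but not in unstressed cells were drawn from 3 lists of ChIP-seq peaks in mouse embryonic fibroblasts. The peaks of the lists were pooled, and intervals that overlapped by at least 1 bp were merged into 3415 regions. A region was a member if it held at least 1 starvation peak and at least 1 tunicamycin peak and no control peak. Of the 3415 regions, 1122 were members (32.9%, 95% exact interval 31.3 to 34.5). The peak calls themselves chose the members, so their scores and folds are given as a description.

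The study made 4 ChIP-seq libraries from fibroblasts whose strain is labelled CRL-2977. A rabbit IgG antibody gave the background library, and an antibody against TFE3 gave 1 library each from control, starved and tunicamycin-treated cells. The control library is labelled full, and the fibroblasts were routinely kept in DMEM with fetal bovine serum and antibiotics. Starved cells had spent 2 hours in Earle's balanced salt solution, and treated cells 16 hours with 0.1 µg/ml tunicamycin. The medium of the IgG library's cells is not given beyond the label background control. No label names a genotype, transgene or deletion. With 1 library a group there is no replicate, and each difference is between libraries.

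TFE3 is a basic helix-loop-helix leucine zipper factor related to TFEB and MITF. In fed cells the kinase mTORC1 at the lysosome phosphorylates it and keeps it in the cytoplasm, and in starved cells it enters the nucleus. There it binds E-box sequences near genes for lysosomes and autophagy. Tunicamycin blocks N-linked glycosylation, so unfolded proteins collect in the endoplasmic reticulum, and TFE3 is known to enter the nucleus under this stress too. The members are thus places where an antibody against one factor recovered DNA after a short nutrient stress and after a long endoplasmic reticulum stress.

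Positions are in mm9 and 1-based. Regions are named by position, since sequence and gene annotation of that build were not used here. The deposited fold is the enrichment at the summit, the highest point of a peak, over the local background of the same list. The number of tags (aligned reads) over each summit was recovered from the deposited fold and p. By that recovery, depth relative to IgG was 1.54 in control, 1.62 in starvation and 2.14 in tunicamycin. Tag numbers carry 95% exact Poisson intervals, which cover counting error only.

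The 10 members of best mean rank, each ranked by score within its own whole list, lay on 8 chromosomes. First was chr4:40216227-40216957, with 96 tags in starvation (95% interval 77.8 to 117) and 143 in tunicamycin (121 to 168). Its folds were 12.1 and 13.5, and its summits, at 40216552 and 40216560, lay 8 bp apart. It stood at rank 71 of 1712 starvation peaks and 79 of 2776 tunicamycin peaks. The nearest control peak was 1005 kb away.

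Next was chr5:147603664-147604119, with 72 tags in starvation (56.3 to 90.7) and 124 in tunicamycin (103 to 148), at folds of 13.7 and 16.6. The latter was the highest tunicamycin fold of any member. After it came chr12:80397066-80397598, with 83 tags in starvation (66.1 to 103) and 111 in tunicamycin (91.3 to 134), at folds of 15.7 and 14.9. It was the only one of the 10 with the lower fold in tunicamycin, and its summits were 3 bp apart.

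Then followed chr1:87520514-87520865, where both summits fell on the same base, 87520646. Its 146 starvation tags (123 to 172) and 215 tunicamycin tags (187 to 246) were the most of the 10, yet its folds were the lowest, 6.08 and 6.66. The local IgG background there was 72.5 tags per kb for the starvation peak and 67.0 for the tunicamycin peak, against a genome-wide 12.0 in both. This region thus combined many TFE3 tags with a high IgG signal.

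The other 6 all had the higher fold in tunicamycin. At chr8:71302678-71303098 the folds were 12.0 in starvation and 16.2 in tunicamycin, with 63 and 121 tags. At chr14:52816935-52817332 they were 12.2 and 13.7, with 77 and 115 tags. At chr15:10210683-10211072 they were 11.4 and 12.3, with 72 and 130 tags, and the summits shared 1 base, 10210882. The summits of these 3 lay 0 to 21 bp apart.

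The region chr19:39914590-39914976 had the best tunicamycin rank of all members, 70, and folds of 9.62 in starvation and 14.9 in tunicamycin, from 65 and 145 tags. On the same chromosome chr19:39760622-39761123 had folds of 8.98 and 11.7, from 71 and 149 tags. A gap of 153 kb separated these, the smallest between any pair of the 10. At chr15:83652988-83653391 the folds were 9.23 and 11.4, with 73 and 144 tags.

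Across the 10 regions, starvation folds spanned 6.08 to 15.7 and tunicamycin folds 6.66 to 16.6. The tunicamycin fold was the higher in 9 of 10, with a ratio of tunicamycin to starvation between 0.943 and 1.55. The mean of raw ranks gives the longer tunicamycin list more weight, so this choice of regions favours high tunicamycin folds. The nearest control peak lay 607 to 9490 kb away. Ranked by one list alone, other members led. The best starvation rank, 43, belonged to chr3:87981503-87981911, with folds of 17.2 in starvation and 8.81 in tunicamycin, from 91 (73.3 to 112) and 65 (50.2 to 82.8) tags. Next in starvation was chr15:81353496-81353965 at rank 52, with folds of 14.4 and 9.80 from 98 and 103 tags. Their tunicamycin percentiles by score were 75.6 and 89.9, both in the highest 25% of that list. They were singled out for their starvation rank after their values were seen.

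**Figure D1:**
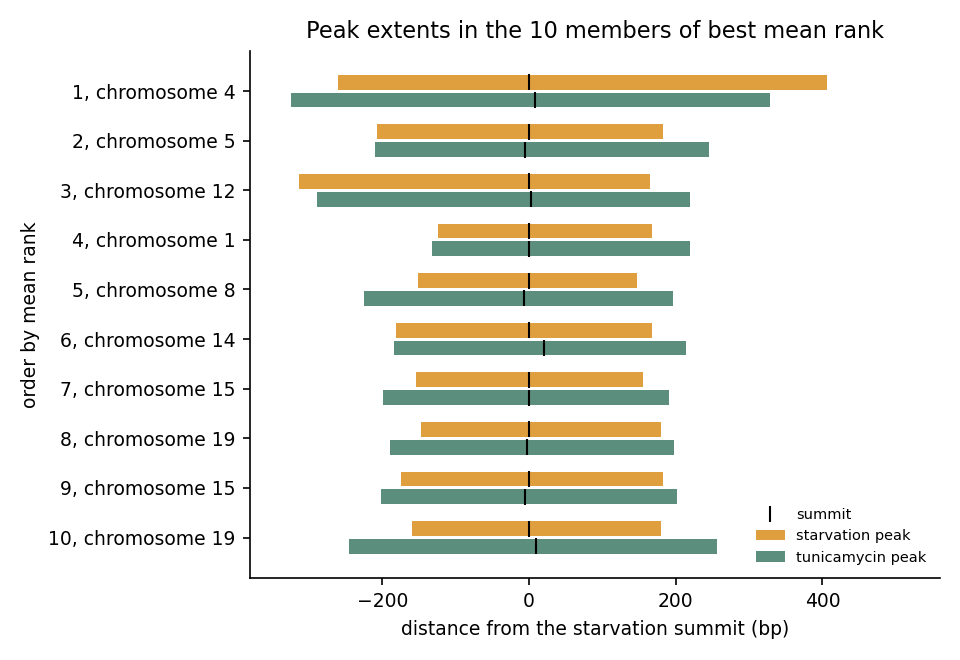
Extent of the starvation peak (orange) and tunicamycin peak (green) in the 10 members of best mean rank, in bp from the starvation summit; black ticks are summits. The summits lie 0 to 21 bp apart, and the tunicamycin peak is the wider in 9 of the 10.

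Nearly every member was a simple pair of peaks. Of the 1122, 1120 held exactly 1 starvation and 1 tunicamycin peak, and 2 held an additional peak of a list. Those were chr2:119698424-119699227 and chr18:13131780-13132620, the second being the widest member at 841 bp. Members used 1123 of the 1712 starvation peaks (65.6%, 63.3 to 67.8) and 1123 of the 2776 tunicamycin peaks (40.5%, 38.6 to 42.3). Together they covered 392 kb.

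The median starvation fold over the 1122 members was 6.59 (interquartile range 5.51 to 7.93, full range 3.04 to 17.2), and that of the whole starvation list was 6.43. The median tunicamycin fold was 7.49 (5.92 to 9.73, full range 2.89 to 16.6), beside 6.32 for its whole list. Summits rested on a median of 39 tags in starvation (range 20 to 153) and 65 in tunicamycin (26 to 251), each in the members whose tag number was recovered, 1113 and 1119. The median percentile of members by score was 54.2 among starvation peaks and 68.4 among tunicamycin peaks. The lists differ in length and members make up a larger share of the shorter one, so these percentiles show no change between the stresses.

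By score, 264 members (23.5%, 21.1 to 26.1) were in the highest 25% of starvation peaks. In the highest 25% of tunicamycin peaks were 462 (41.2%, 38.3 to 44.1). In the lowest 25% were 210 (18.7%) and 149 (13.3%). Of the 169 regions of all 3 lists, 159 (94.1%) and 158 (93.5%) were in the highest 25%. Members make up a larger share of the shorter starvation list, so these counts show no change between the stresses. Both peaks were in the highest 25% of their lists in 182 members (16.2%, 14.1 to 18.5) and in the lowest 25% in 49 (4.37%, 3.25 to 5.73). Opposite extremes occurred in 41 members (3.65%, 2.63 to 4.92), a share close to the last. In 34 members the tunicamycin peak was in the highest 25% and the starvation peak in the lowest, and in 7 it was the other way round. The counts in the single lists are uneven in the same direction, so this split shows no separate difference.

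Regions called in all 3 lists were stronger. The median folds of those 169 were 12.2 in starvation and 14.1 in tunicamycin, and their median summit tags 84 and 136. Only 8 members reached their median score in starvation (367), and 7 their median score in tunicamycin (478). A single member, chr4:40216227-40216957, reached both. On the other side, regions of 1 list were weaker than members. The median fold was 5.32 in the 388 starvation-only regions and 5.66 in the 1484 tunicamycin-only regions, with 31.5 and 46 tags. Because the calls that set these classes come from the same values, the order of the classes is descriptive.

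The fold of the member in tunicamycin was above its fold in starvation in 754 of 1122 members (67.2%, 64.4 to 69.9). Over all 1291 regions called in both stress lists the share was 68.2%. The 1122 members make up most of those, so the 2 shares are close by construction. In the 169 regions of all 3 lists the share was 74.6% (67.3 to 80.9). The median ratio of the tunicamycin fold to the starvation fold was 1.15 (interquartile range 0.926 to 1.40), and in regions of all 3 lists it was also 1.15. A ratio of at least 1.5 occurred in 176 members (15.7%, 13.6 to 17.9), against 14.9% of all 1291. In the regions of all 3 lists it occurred in 9.47% (5.51 to 14.9). The reverse, a starvation fold at least 1.5 times the tunicamycin fold, occurred in 50 members (4.46%, 3.33 to 5.83), against 4.42% of all 1291. In the regions of all 3 lists it occurred in 4.14% (1.68 to 8.35). With 1 library per stress, none of these shares can be set against a spread between replicates.

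A fold depends on the fragment length and background of its list. The fragment length, read from the shortest peak of the list, was 193 bp in starvation and 212 bp in tunicamycin. Summit tags were therefore also scaled to the IgG depth, reduced by the local background and divided by the fragment length. On this scale members had a median of 108 tags per kb in starvation (interquartile range 89.7 to 137) and 127 in tunicamycin (96.8 to 162). Tunicamycin was the higher in 715 of 1110 members (64.4%, 61.5 to 67.2), with a median ratio of 1.15 (0.878 to 1.41). In the regions of all 3 lists it was the higher in 128 of 169 (75.7%, 68.6 to 82.0), also with a median ratio of 1.15. A higher value in tunicamycin was thus not particular to members. The scaled tags were themselves recovered from the fold and p, so sharing the direction of the fold gives it no separate support.

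**Figure D2:**
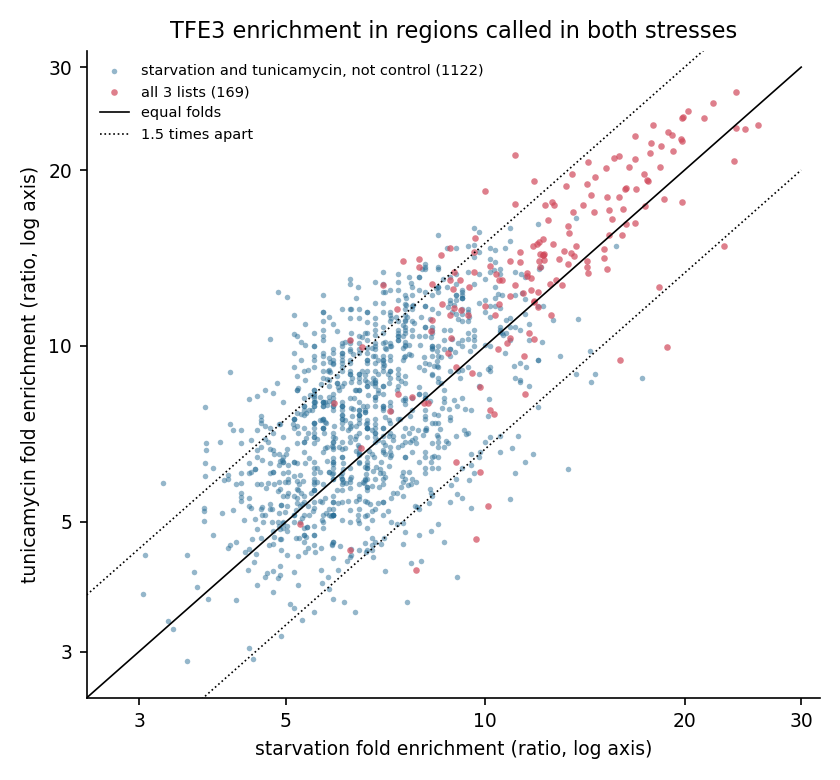
Fold enrichment in tunicamycin (vertical) against starvation (horizontal), log axes, for each member (blue, 1122) and each region of all 3 lists (red, 169); the solid line marks equal folds and the dotted lines a factor of 1.5. Most members lie above the solid line (754 of 1122), and the red points run higher along both axes.

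Strong members in one stress tended to be strong in the other, with wide scatter. Across the 1122 members, Spearman's rho between starvation and tunicamycin fold was 0.54 and Pearson's r 0.54. Across the 169 regions of all 3 lists they were 0.79 and 0.80. Starvation folds there had an interquartile range of 9.83 to 15.7, against 5.51 to 7.93 in members. Their median summit tags were 84 and 136, against 39 and 65. The coefficients of the 2 sets are therefore not comparable. All are descriptions across regions, which share the IgG background and were selected by calls in both lists, and regions are not independent replicates. The percentile by score differed by more than 25 points between the lists in 445 members (39.7%, 36.8 to 42.6) and in 8 of the 169 regions of all 3 lists. The latter sat near the top of both lists, at median percentiles of 94.6 and 96.8, which leaves little room for such a difference, so the 2 counts are not comparable.

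The percentile by score in tunicamycin minus that in starvation was -80.7 to -72.1 in the 3 members farthest ahead in starvation. In the 3 farthest ahead in tunicamycin it was 80.0 to 81.3. At chr18:49012298-49012673 starvation gave 26 tags (17.0 to 38.1) at a fold of 4.87, and tunicamycin 92 (74.2 to 113) at 12.4. At chr1:22497189-22497550 the folds were 3.77 and 7.86 with 35 and 99 tags, and at chr6:139335141-139335485 they were 4.73 and 10.3 with 29 and 86 tags. In all 3 the tunicamycin fold was at least 2.08 times the starvation fold.

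The opposite order was seen at chr11:116746596-116746940, where starvation gave 60 tags (45.8 to 77.2) at a fold of 7.62 and tunicamycin 37 (26.1 to 51.0) at 3.65, although its library was 1.33 times as deep. At chr13:49748416-49748792 the folds were 9.06 and 4.02 with 57 and 41 tags, and at chr8:96702900-96703205 they were 7.72 and 4.25 with 47 and 36 tags. In these the tunicamycin summit held fewer tags than the starvation summit in spite of the greater depth. The regions farthest ahead in either stress were picked as extremes of the scores that folds and tags determine. Their values describe that choice, and the Poisson intervals do not allow for it. A neighbour of chr8:96702900-96703205, chr8:96695998-96696240, was the weakest member by mean rank, with folds of 3.54 in starvation and 2.89 in tunicamycin.

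The place of the summit was not part of the rule, apart from the limit that overlapping peaks put on it. The starvation and tunicamycin summits of a member lay a median of 15 bp apart (interquartile range 7 to 29). They were within 50 bp in 1008 of 1122 members (89.8%, 87.9 to 91.5) and within 10 bp in 423 (37.7%, 34.9 to 40.6). Only 18 were over 100 bp apart. For the regions called in every list this median came to 11 bp, and 158 of 169 were within 50 bp (93.5%, 88.7 to 96.7). The tunicamycin summit had the higher coordinate in 555 members and the lower in 549, and in 18 both summits were on the same base.

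**Figure D3:**
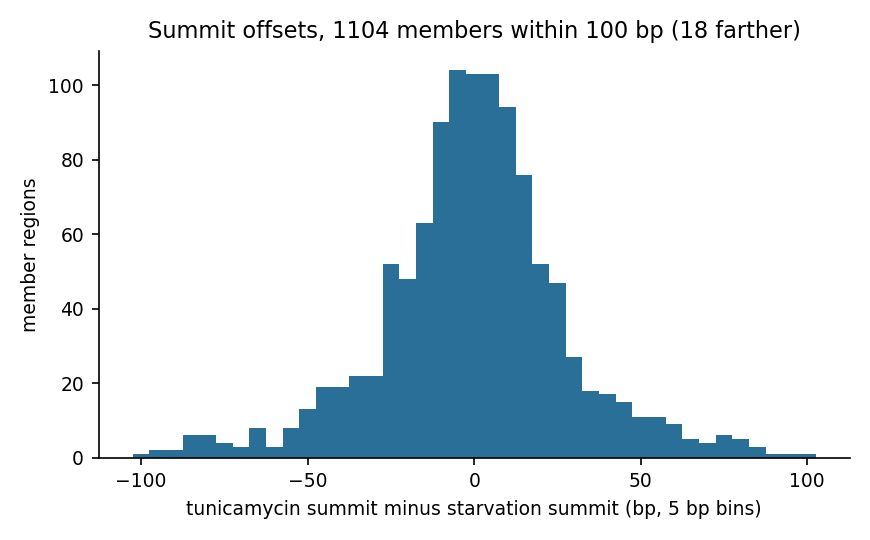
Tunicamycin summit position minus starvation summit position in bp, in 5 bp bins, for the 1104 members within 100 bp. The counts centre on 0, and 18 members lie beyond 100 bp.

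Stronger members had closer summits. With members split into 4 sets by mean rank, the median distance was 10 bp in the strongest set (281 members), and 12.5, 18 and 24 bp in the sets that followed. The share within 50 bp was 95.7% (92.7 to 97.8) in the strongest set and 79.4% (74.2 to 83.9) in the weakest. The number of tags, on which the precision of a summit depends, moves with this order, and its part in it was not tested. The farthest summits, 367 bp apart, were at chr12:111829426-111830089, where the peaks overlapped by 516 bp. Its starvation summit, at 111829973, held 52 tags and its tunicamycin summit, at 111829606, held 46.

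Tunicamycin peaks were wider than starvation peaks in 882 of 1122 members (78.6%, 76.1 to 81.0) and in 141 of 169 regions of all 3 lists (83.4%, 76.9 to 88.7). Median widths were 331 bp (interquartile range 283 to 367) and 265 bp (226 to 311). The starvation peak lay wholly inside the tunicamycin peak in 684 members (61.0%, 58.0 to 63.8), and the reverse held in 109 (9.71%, 8.04 to 11.6). The starvation summit was within the tunicamycin peak in 1120 members, and the tunicamycin summit was within the starvation peak in 1118. Width followed fold in each list, with a Spearman rho of 0.52 in starvation and 0.64 in tunicamycin across the 1122 members. The fragments of the tunicamycin library were also longer, and depth and fragment length cannot be told apart from treatment as sources of the width.

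The rule needs an absent control peak, so the level at which the control list could have held one bears on membership. Under the recovered scale, a control summit at the genome-wide background needed 17 tags to reach the lowest −log10 p of the control list, 5.85. That p is the lowest value in the list and was not taken from a stated cutoff. The lowest −log10 q was 1.57 in control, 1.65 in starvation and 1.45 in tunicamycin. The 102 control peaks at that background had a median of 27.5 tags and a lowest of 20. Over all members, taking the higher of the 2 local backgrounds, the need was a median of 17 tags (interquartile range 17 to 20, highest 67).

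Starvation tags of a member, carried to the depth of the control library, came to a median of 37.1, and to 28.6 after its shorter fragment (149 bp) was allowed for. With both adjustments they reached the need in 1097 of 1113 members (98.6%, 97.7 to 99.2). Tunicamycin tags carried over in the same way had a median of 32.8 and reached it in 1074 of 1119 (96.0%, 94.7 to 97.1). In 1053 of 1110 members both did (94.9%, 93.4 to 96.1), and in 4 neither did. These shares are close to fixed by the choice of members. The lowest −log10 p was 5.27 in the whole starvation list and 4.70 in the whole tunicamycin list. The shares describe the level of the need and do not bear on why control peaks were missing.

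The margin was modest at many of them. At the need, control would have held a median of 51.2% of the starvation tags scaled to depth alone (interquartile range 42.5 to 60.9). For tunicamycin tags scaled to depth alone it was 40.9% (32.5 to 52.9). Allowing for the shorter control fragment lowers the carried-over tags, so the need is then a larger percentage of them. In only 123 of 1110 members (11.1%, 9.29 to 13.1) was the need at most 50% of both when fragment length was allowed for too. Among the 498 members at the genome-wide background in both lists, carried-over starvation tags reached the lowest control peak there, 20 tags, in 456 (91.6%, 88.8 to 93.9). They reached the median control peak in 200 (40.2%, 35.8 to 44.6). For tunicamycin these counts were 453 and 325. A missing peak thus limits control occupancy to below a level read from the lowest control p and does not show that TFE3 was absent. A stretch shorter than the fragment is also not listed as a peak, so the limit is not strict.

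**Figure D4:**
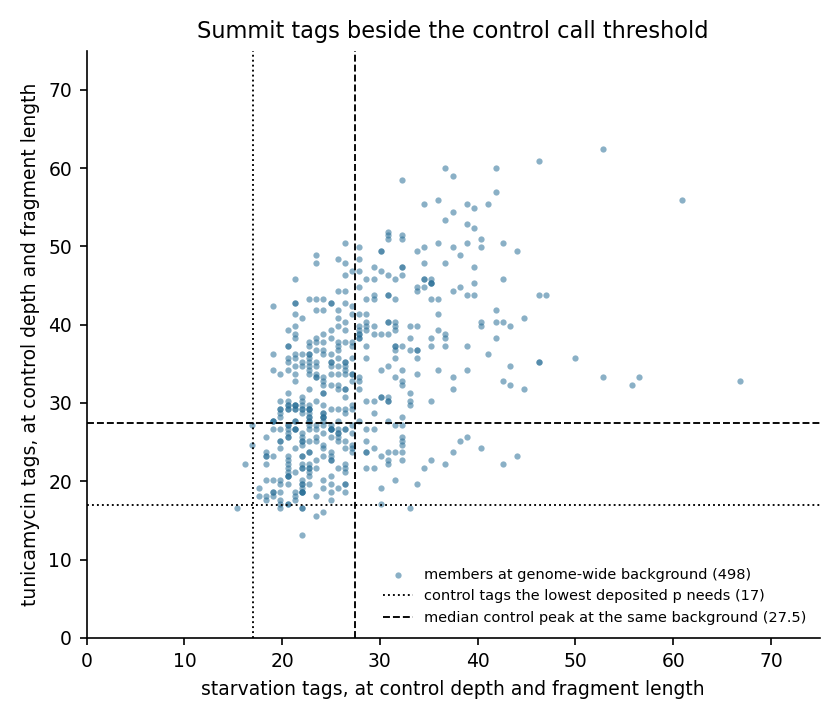
Summit tags in starvation (horizontal) and tunicamycin (vertical), scaled to the depth and fragment length of the control library, for the 498 members at the genome-wide background in both lists. Dotted lines mark the 17 tags that reach the lowest control p. Dashed lines mark the median control peak at that background, 27.5. Most members lie beyond the dotted lines.

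By overlap and by distance to a control peak, few regions lay close to the limits of the rule. Just inside the overlap rule, the smallest overlap of a member was 103 bp, at chr4:15885493-15885862, with folds of 5.14 in starvation and 3.56 in tunicamycin. Just outside it, a starvation peak at chr15:95634610-95634885 and a tunicamycin peak at chr15:95633965-95634220 missed each other by 389 bp. That was the only such pair of single-list regions within 500 bp. The weakest members after the one on chromosome 8 were chr3:121752098-121752456, with folds of 4.21 and 4.61 from 21 and 33 tags, and chr3:126865202-126865417, with 4.87 and 4.01 from 26 and 32. On the control side, no member had a control peak within 500 bp. The nearest were at 635 bp from chr5:65268433-65268711 and 1286 bp from chr19:57317757-57318095. Among regions of all 3 lists, the weakest control peaks stood as follows. At chr8:121628857-121629270 a control peak of 25 tags and fold 3.45 stood beside folds of 7.0 and 12.7, and at chr5:31456242-31456766 one of 27 tags and fold 3.71 beside 10.5 and 11.8. At chr10:79316745-79317133 a control peak of 19 tags and fold 4.46 stood beside 6.49 and 6.69. The first pair exceeded the members' upper quartile of 9.73 in tunicamycin, and the last lay within the members' interquartile ranges in both stresses.

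Local IgG signal at members had a median of 12.3 tags per kb for starvation peaks (upper quartile 15.5). For tunicamycin peaks it was 12.9 (upper quartile 16.0), against a genome-wide 12.0 in both. Both peaks were at the genome-wide background in 498 of 1110 members (44.9%, 41.9 to 47.8). The starvation peak was so in 542 of 1113 (48.7%, 45.7 to 51.7), beside 55 of 169 regions of all 3 lists (32.5%, 25.5 to 40.2) and 153 of 388 starvation-only regions (39.4%, 34.5 to 44.5). The tunicamycin peak was so in 514 of 1119 (45.9%, 43.0 to 48.9), beside 52 of 169 and 770 of 1478 tunicamycin-only regions (52.1%, 49.5 to 54.7). Within the 498 members the median folds were 6.81 in starvation and 8.62 in tunicamycin.

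The nearest other member was a median of 538 kb away, and 24 members (2.14%, 1.38 to 3.17) had another within 10 kb. These formed 12 pairs. Within 100 kb, 173 members (15.4%, 13.3 to 17.7) had another member and 384 (34.2%, 31.5 to 37.1) another region of any class. The closest, chr8:124114210-124115754, held 2 members with a gap of 868 bp, starvation folds of 5.86 and 6.38 and tunicamycin folds of 4.59 and 7.0. Another, chr3:45410675-45413576, had a gap of 2251 bp and reached folds of 8.49 in starvation and 12.4 in tunicamycin. The nearest control peak was within 100 kb of 45 members (4.01%, 2.94 to 5.33). All these distances were counted from members only. Whether members lie closer together, or farther from control peaks, than other regions was not tested.

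All 19 autosomes and X carried members. Chromosome 5 held the most, 91, followed by chromosomes 2 and 11 with 82 each, and X held 6. As a share of the regions of the same chromosome, members ran from 25.7% on chromosome 12 (19 of 74, 16.2 to 37.2) to 41.3% on chromosome 17 (78 of 189, 34.2 to 48.6). The interval of chromosome 17 lay above the overall 32.9%, and that of chromosome 3 (63 of 237, 26.6%, 21.1 to 32.7) just below it. The other 18 intervals held the overall share. With an interval read for every chromosome, some can miss the overall share by counting error alone, and no correction was made for their number.

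**Figure D5:**
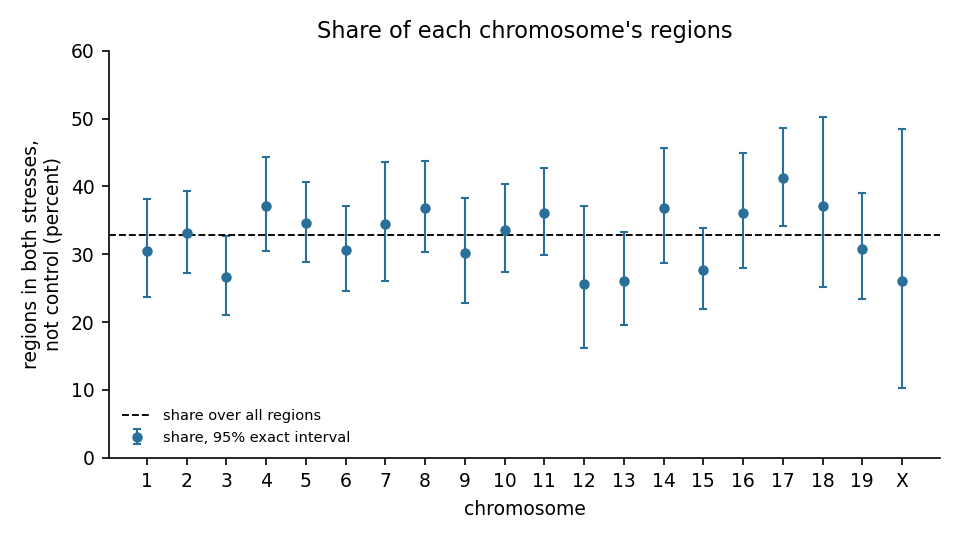
Share of each chromosome's merged regions that were members, in percent, with 95% exact intervals (bars); the dashed line is the share over all 3415 regions, 32.9%. Chromosome 17 lies above the line with its whole interval and chromosome 3 just below it, without correction for the number of chromosomes.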

How the data were processed

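Bowtie, MACS2 and the build mm9 are named, without version or role, in the submitters' processing notes. The authors deposited 1 narrowPeak list per TFE3 library, with a score, a linear fold (ratio), −log10 p and −log10 q per peak, and the IgG library entered only as background. Each peak name carries its own library and the negative control, which shows calling library by library. The deposited score is 10 times the −log10 q, cut to a whole number. From these, regions were merged, the best-scored peak of each list was taken per region, and tag numbers were recovered. MACS2's fold and Poisson formulas, with a pseudocount of 1, were inverted with 1 scale per list. A whole number of tags, meeting p within 0.004, was found for 422 of 422 control, 1703 of 1712 starvation and 2767 of 2776 tunicamycin peaks. No label records these formulas. In simulated peaks of equal number, made by the formulas themselves, a tag number was found for 100% of control, 99.9% of starvation and 99.6% of tunicamycin peaks, and it was the simulated one in 100% of these. Shares carry 95% Clopper-Pearson intervals over regions, which cover counting error only.

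No test between conditions was made, since each group had 1 library. The members, the lists and the rules were chosen with earlier results of these data known. Members were named by best and worst mean rank, by largest percentile difference in each direction, and at the extremes of width, summit distance, overlap and distance to control. Shares of E-boxes and gene starts were planned but need mm9 sequence and annotation, which were not used here. Values were computed in Python 3.11.15 with scipy 1.17.1, pandas 2.3.3 and numpy 2.4.6, and drawn with matplotlib 3.10.9.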

Additional observations from a re-analysis of the deposited data

How the results depend on the processing

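Of 20 repeats of the main values, 14 stayed and 6 moved. A count stayed within 1.5 times, and a share or median within the 95% interval of its main value. With a score of at least 108 in all lists, 496 regions met the rule, 405 of them overlapping a member, since control peaks are also removed. With the stress lists cut to their top 1000 peaks 489 did. With a score of at least 68 the share of all regions was 34.5%, the median summit distance 13 bp and the median folds 7.23 in starvation and 8.64 in tunicamycin. The number of regions was 846 there, 1112 with a 50% reciprocal overlap, 1008 with summits within 50 bp, and 1123 when peaks within 500 bp were merged. One lowest −log10 p in all lists, added after seeing the data, gave 1118. E-box windows and gene-start distances were not run. No paired analysis was possible because each group has 1 library. The lowest listed p, depth and fragment length of the control library limit what a missing control peak can show. Why such peaks were missing was not tested.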
